A study of Mus musculus with 8 samples.

Results

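The genes described here encode proteins of blood clotting and of complement that the liver releases into plasma. They came from a list of 36 genes, 18 of coagulation and 18 of complement, and a gene was kept where the array had a probe set naming it alone. This left 31 genes, all 18 of coagulation and 13 of complement, out of 8251 genes that the array named. C3, C4b, C6, C8a and Cfd were not analysed here. Messages were read on 8 Affymetrix MG-U74Av2 oligonucleotide arrays hybridised with total liver RNA. The question was whether switching on the stress kinase PERK in liver alters the messages of these secreted proteins, and whether Atf4 matters for it.

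All mice, controls included, carried the Ttr::Fv2E-PERK transgene on a mixed FvB/n and Swiss Webster background. The transgene encodes PERK fused to a dimerization domain and came from 1 low-expressing line. Its promoter, that of Ttr (transthyretin), is active mainly in hepatocytes. The drug AP20187 joins 2 copies of the domain and so turns the kinase on. The 4 groups, with 2 arrays each, were untreated Atf4+/+, untreated Atf4-/-, AP20187-treated Atf4+/+ and AP20187-treated Atf4-/- livers of sibling mice. The series title calls the controls mock-injected and the sample labels call them untreated. Age, sex, dose and time after the drug are not given in the sources used here. The labels do not say if a group's arrays are from different animals, so that p-values may measure only technical spread.

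PERK phosphorylates the translation initiation factor eIF2, which slows the synthesis of most proteins and favours that of the transcription factor ATF4. This signalling, the integrated stress response, protects cells that secrete much protein from overload of the endoplasmic reticulum. Hepatocytes make most clotting factors. In coagulation, the contact system and the vitamin K-dependent proteases lead to thrombin, which turns fibrinogen into fibrin, while serpins and protein C restrain the cascade and plasmin dissolves the clot. Complement is started by C1q, by the mannose-binding lectins or by the alternative pathway, and ends in a pore made of C5 to C9. Fibrinogen and factor B belong to the acute phase proteins, whose synthesis rises in inflammation under the control of STAT3 and C/EBP factors.

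The promoters of 6 members are shown, whose genes, Fga apart, gave treated and untreated arrays that did not overlap. F7, for which these arrays did not overlap either by the probe set used, is not shown. Fga is included as the partner of Fgb and Fgg. Each is the 250 bases before the RefSeq transcription start of build GRCm38.p6, 5′ to 3′ on the gene's strand. Capitals mark matches to the C/EBP motif TTGCNNAA or the STAT motif TTCNNNGAA on either strand. The windows are Fga at chr3:83025903-83026152 (plus strand), Fgb at chr3:83049864-83050113 (minus strand), Fgg at chr3:83007474-83007723 (plus strand), C4bp at chr1:130661619-130661868 (minus strand), Klkb1 at chr8:45294836-45295085 (minus strand) and F13b at chr1:139501457-139501706 (plus strand).
Fga: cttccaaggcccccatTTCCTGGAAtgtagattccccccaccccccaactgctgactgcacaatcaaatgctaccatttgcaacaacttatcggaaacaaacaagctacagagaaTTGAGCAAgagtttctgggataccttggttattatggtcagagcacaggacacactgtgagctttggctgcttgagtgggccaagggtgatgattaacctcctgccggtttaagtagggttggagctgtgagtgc
Fgb: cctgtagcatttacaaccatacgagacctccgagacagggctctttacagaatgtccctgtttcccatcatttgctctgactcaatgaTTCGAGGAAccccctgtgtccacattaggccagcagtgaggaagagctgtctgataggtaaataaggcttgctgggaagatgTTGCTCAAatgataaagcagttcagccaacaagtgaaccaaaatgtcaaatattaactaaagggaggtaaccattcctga
Fgg: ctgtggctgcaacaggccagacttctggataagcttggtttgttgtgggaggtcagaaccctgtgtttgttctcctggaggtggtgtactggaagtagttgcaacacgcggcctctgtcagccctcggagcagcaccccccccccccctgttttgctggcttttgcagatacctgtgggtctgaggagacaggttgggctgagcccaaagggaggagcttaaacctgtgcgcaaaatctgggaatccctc
C4bp: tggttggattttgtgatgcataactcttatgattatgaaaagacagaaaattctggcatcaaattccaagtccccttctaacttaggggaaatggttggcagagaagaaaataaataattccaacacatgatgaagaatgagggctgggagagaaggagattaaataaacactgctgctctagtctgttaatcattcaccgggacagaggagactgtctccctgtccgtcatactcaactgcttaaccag
Klkb1: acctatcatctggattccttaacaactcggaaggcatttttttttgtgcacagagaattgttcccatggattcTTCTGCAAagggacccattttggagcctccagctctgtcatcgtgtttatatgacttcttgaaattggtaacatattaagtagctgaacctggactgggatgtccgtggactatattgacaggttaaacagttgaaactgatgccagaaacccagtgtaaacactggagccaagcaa
F13b: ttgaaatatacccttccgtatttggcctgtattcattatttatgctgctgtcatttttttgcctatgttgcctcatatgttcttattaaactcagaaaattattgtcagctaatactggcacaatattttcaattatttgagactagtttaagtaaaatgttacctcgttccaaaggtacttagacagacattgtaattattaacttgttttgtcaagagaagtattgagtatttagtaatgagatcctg

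Fga and Fgb each held 1 match to the C/EBP motif and 1 to the STAT motif. Their C/EBP matches began 135 and 80 bases before the start, and the STAT matches 234 and 162 bases before it. Klkb1, whose message stood lower with the drug, held a C/EBP match that began 177 bases before its start. The windows of Fgg, C4bp and F13b held neither motif. A RefSeq window was found for 22 of the 31 members, 14 of coagulation and 8 of complement. Of the coagulation windows 4 held the C/EBP motif (Fga, Fgb, F9 and Klkb1) and 4 the STAT motif (Fga, Fgb, F9 and Pros1), and of the complement windows 1 held each (C9 and Masp2). Of all 32851 windows given by RefSeq for the mouse, 9.56% held the C/EBP motif and 7.02% the STAT motif. The composite motif of ATF4 and C/EBP, TTNCATCA, was in none of the 22 windows and in 3.45% of all windows. The HNF1 motif was in none of the 22 and in 0.00913% of all. A match describes letters only, and the motifs do not overlap each other in the windows shown.

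The deposited value of a probe set is a ratio to a reference, which for each of the 31 genes lay near its own median over the 8 arrays, so a ratio of 1 is the middle of the arrays. Levels of different genes cannot be compared on this scale. Differences below are on the scale of log2(ratio + 0.1), which understates changes of low ratios, with the standard error of the limma fit. A change was called at a Benjamini-Hochberg adjusted p under 0.05 over 12422 probe sets. A lower value can mean fewer cells of a type or less RNA per cell, which cannot be told apart in whole liver. No hepatocyte or macrophage marker was listed at 0 on any array, but a ratio to a probe set's own median does not show how strongly it was detected.

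Several arrays stand apart from their labels or from the rest. The Atf4 ratio was 2.36 and 0.30 in untreated Atf4+/+ replicates 1 and 2, and 0.29 and 1.67 in untreated Atf4-/- replicates 1 and 2, so the second array of each group stands against its label. In the treated groups it was 4.17 and 5.75 with Atf4, and 0.25 and 0.33 without. For untreated Atf4-/- replicate 1 the source name, used here, says Atf4-/- and the description says Atf4+/+. Treated Atf4+/+ replicate 2 stood lowest in the Actb control, with a log2 value of -0.64 against -0.19 to 0.14 on the other 7 arrays. This control sets the 5′ probe set against the 3′ one as a sign of RNA integrity. In the same control of Gapdh that array did not stand apart, with -0.06 against -0.05 to 0.13 on the others. Differences without one or more of these arrays are given beside many of the members' results.

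**Figure D1:**
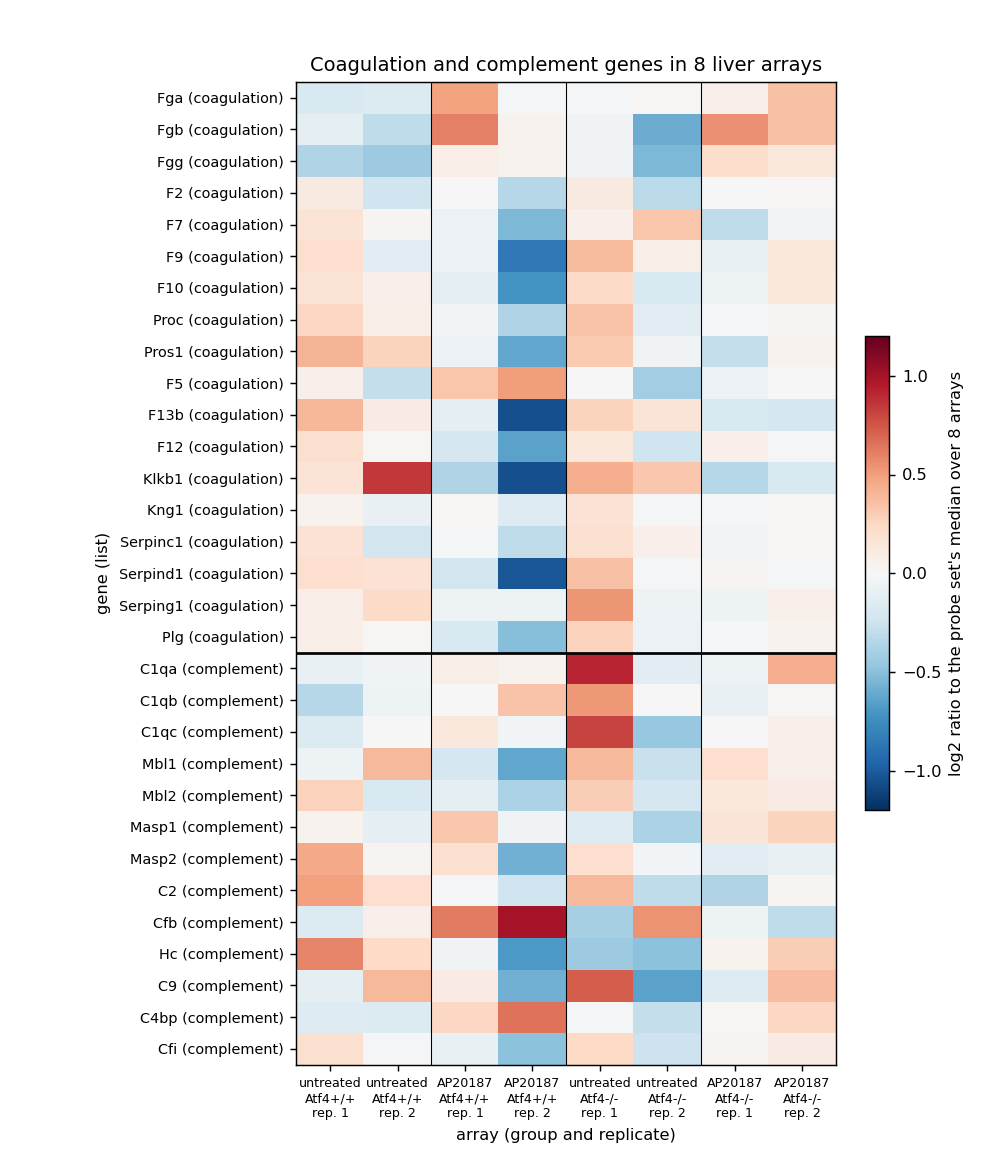
Log2 ratio, to about the median of the 8 arrays, of the 31 measured genes (rows) on each array (columns, by Atf4 genotype and treatment), red above and blue below 0. The fibrinogen rows are higher in most treated arrays, and treated Atf4+/+ replicate 2 is low across most other coagulation rows.

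With AP20187, averaged over both genotypes, the 3 fibrinogen chains and factor V stood higher, and plasma prekallikrein (Klkb1), factor XIII B chain and most other clotting genes stood lower. Of the 18 coagulation genes 13 lay below 0 (72.2%) against 55% of all probe sets, with a median log2 difference of -0.21 against -0.04. Without fibrinogen 13 of 15 lay below 0, with a median of -0.22. Leaving out each array in turn, the coagulation median lay between -0.29 (without untreated Atf4-/- replicate 2) and -0.108 (without untreated Atf4-/- replicate 1), and it was -0.118 without treated Atf4+/+ replicate 2. The complement genes were divided, 9 of 13 below 0, with a median of -0.07 that lay between -0.25 and 0.07 with an array left out. No gene of either set passed the adjusted threshold in limma, which 0.0403% of all probe sets did. At an unadjusted p under 0.05 there were 4 coagulation genes, Fgb and Fgg higher and Klkb1 and F13b lower, and 1 complement gene, C4bp, higher. That is 22.2% of the coagulation and 7.69% of the complement genes, against 11.3% of all probe sets (6.16% higher and 5.15% lower). Treated and untreated arrays did not overlap, 4 against 4, for 2 coagulation genes on the high side (Fgb and Fgg) and 3 on the low side (Klkb1, F13b and F7), and for 1 complement gene on the high side (C4bp). Among all probe sets 4.19% lay apart on the high side and 3.78% on the low side. The 16.7% of coagulation genes on the low side rests on 3 genes, of which F7 overlapped by its second probe set. Members were chosen with earlier results of these data known, so a share above the background only describes them. Without both arrays whose Atf4 level stood against the label, 14 coagulation and 10 complement genes lay below 0, and no gene of either set had an unadjusted p under 0.05. The 4 coagulation genes at an unadjusted p under 0.05 became 1 without untreated Atf4+/+ replicate 2, untreated Atf4-/- replicate 2 or treated Atf4-/- replicate 1, 2 without untreated Atf4+/+ replicate 1, treated Atf4+/+ replicate 2 or treated Atf4-/- replicate 2, and up to 6 otherwise. Leaving out untreated Atf4-/- replicate 1 left 5 complement genes below 0, so that their majority rests on that array.

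Fibrinogen is the protein that thrombin converts to the fibres of the clot, built from the chains of Fga, Fgb and Fgg. The Fgb ratio was 0.93 and 0.81 in untreated Atf4+/+, 0.97 and 0.66 in untreated Atf4-/-, 1.52 and 1.03 in treated Atf4+/+, and 1.46 and 1.28 in treated Atf4-/- livers. All 4 treated arrays lay above all 4 untreated ones, with treated Atf4+/+ replicate 2 the closest to them. The Fgb log2 difference was 0.59 ± 0.20 (SE, 4 arrays against 4; limma adjusted p = 0.382), a fold of 1.51 on this scale. The Fgg ratio was 0.78 and 0.74, then 0.97 and 0.69 in untreated Atf4+/+ and Atf4-/-, and 1.06 and 1.03, then 1.16 and 1.10 in the treated groups. Again no treated array reached down to an untreated one, and the log2 difference was 0.42 ± 0.16 (limma adjusted p = 0.424). For Fga the ratio was 0.88 and 0.89, then 0.99 and 1.01 in untreated Atf4+/+ and Atf4-/-, and 1.40 and 0.99, then 1.04 and 1.28 in the treated groups. The Fga groups overlapped because treated Atf4+/+ replicate 2 stood level with the untreated Atf4-/- livers, and the log2 difference was 0.28 ± 0.17 (limma adjusted p = 0.570). Fgb was the only coagulation gene at an unadjusted p under 0.05 in Atf4-/- livers, with a log2 difference of 0.70 ± 0.28 (limma adjusted p = 0.667). In Atf4+/+ livers the 3 chains differed by 0.38 ± 0.24 (Fga), 0.48 ± 0.28 (Fgb) and 0.41 ± 0.23 (Fgg), and without treated Atf4+/+ replicate 2 by 0.61, 0.74 and 0.43. Over the arrays left out in turn, the averaged difference of Fgb lay between 0.46 and 0.72 and that of Fgg between 0.31 and 0.53. Without untreated Atf4-/- replicate 2, the differences in Atf4-/- livers were 0.46 for Fgb and 0.20 for Fgg.

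**Figure D2:**
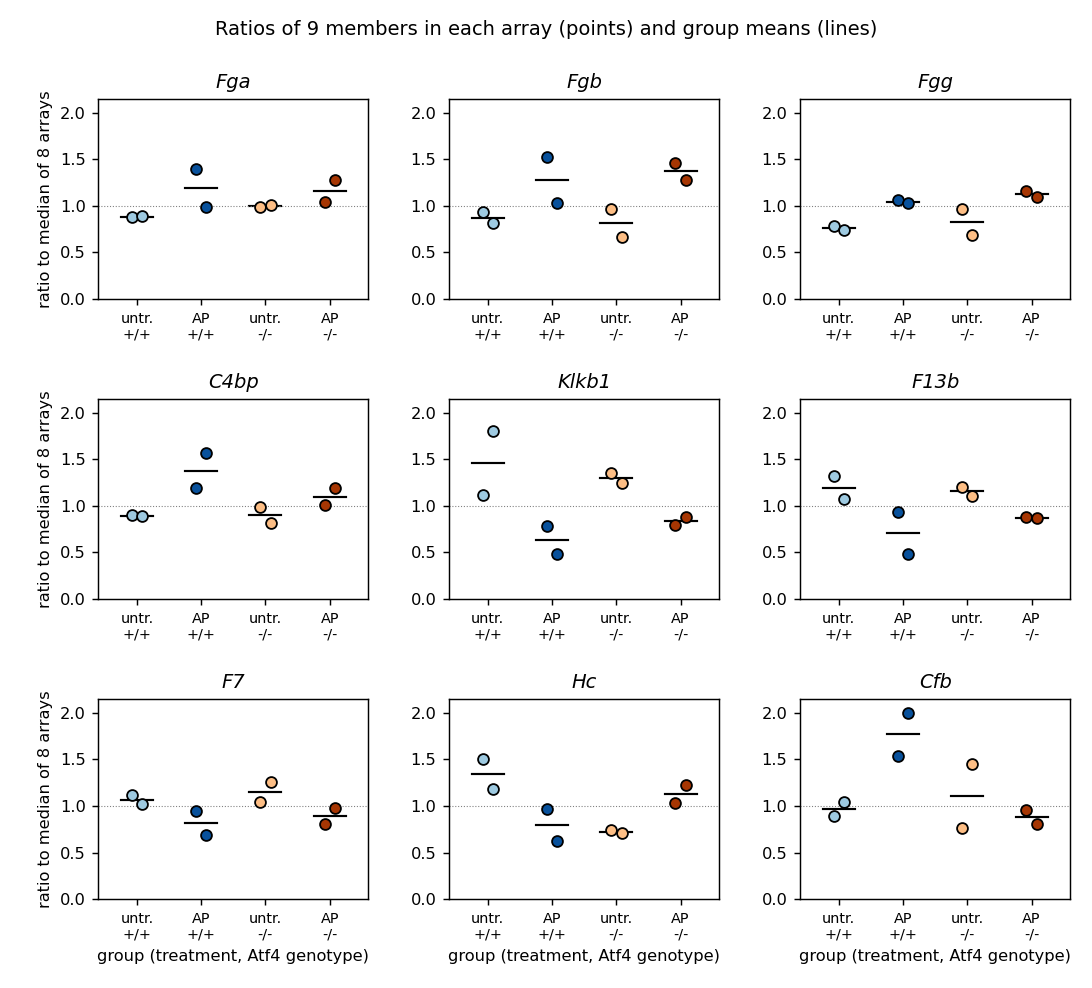
Ratio (to about the median of the 8 arrays, linear axis) of Fga, Fgb, Fgg, C4bp, Klkb1, F13b, F7, Hc and Cfb, with 1 point per array in 4 groups and a line at each group mean of 2 arrays. Fgb, Fgg and C4bp points of the treated groups lie above all untreated points, and Klkb1, F13b and F7 points below them.

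The vitamin K-dependent proteins are prothrombin (F2), factors VII, IX and X (F7, F9, F10), and the anticoagulants protein C (Proc) and protein S (Pros1). F2, the zymogen of thrombin, had ratios of 1.08 and 0.85, then 1.08 and 0.80 in untreated Atf4+/+ and Atf4-/-, and 1 and 0.79, then 1 and 1.01 in the treated groups. Its values did not separate by treatment, and the averaged log2 difference was 0.0015 ± 0.18. The other 5 genes had averaged differences between -0.21 ± 0.17 (Proc) and -0.43 ± 0.19 (Pros1, limma adjusted p = 0.461). F7, which starts the extrinsic pathway with tissue factor, had treated ratios between 0.69 and 0.98 and untreated ratios between 1.02 and 1.26, without overlap. Its log2 difference was -0.34 ± 0.17 (limma adjusted p = 0.516). A second F7 probe set overlapped between the groups and gave -0.41 ± 0.24. Without treated Atf4+/+ replicate 2 the averaged differences were -0.24 for F7 (-0.19 from its second probe set), -0.14 for F9, -0.10 for F10, -0.13 for Proc and -0.30 for Pros1. The second probe set of F10 gave -0.11 ± 0.24 beside -0.23 ± 0.19 for the one used, and 0.09 without the same array. For Proc the probe sets went opposite ways: the other one gave 0.30 ± 0.24, and in Atf4-/- livers 0.97 ± 0.35 (limma adjusted p = 0.635), where the probe set used gave -0.09 ± 0.24. In untreated Atf4-/- replicate 2 that other Proc probe set had a ratio of 0.33, and without that array its difference in Atf4-/- livers was 0.48.

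Factor V (F5), the cofactor of factor Xa, had ratios of 1.04 and 0.82, then 1 and 0.75 in untreated Atf4+/+ and Atf4-/-, and 1.26 and 1.42, then 0.95 and 1 in the treated groups. The treated Atf4+/+ arrays were the highest 2 and the other groups overlapped. The log2 difference was 0.49 ± 0.24 in Atf4+/+ (limma adjusted p = 0.605) and 0.15 ± 0.24 in Atf4-/- livers. Without the arrays whose Atf4 level stood against the label it was 0.34 and -0.03. F13b, the carrier chain of the fibrin-crosslinking factor XIII, had ratios of 1.32 and 1.07, then 1.2 and 1.11 in the untreated groups, and 0.93 and 0.48, then 0.88 and 0.87 in the treated groups. No treated array reached the untreated ones, and treated Atf4+/+ replicate 2 was the lowest. The averaged log2 difference was -0.55 ± 0.22 (limma adjusted p = 0.432), and -0.34 without that array.

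The contact system starts clotting on charged surfaces and releases bradykinin. Klkb1 encodes plasma prekallikrein, the protease precursor that cleaves kininogen, and it had the largest difference of the 31 genes averaged over genotypes. Its ratio was 1.12 and 1.80 in untreated Atf4+/+, 1.35 and 1.25 in untreated Atf4-/-, 0.78 and 0.48 in treated Atf4+/+, and 0.79 and 0.88 in treated Atf4-/- livers. Every treated array lay below every untreated one, in both genotypes. The averaged log2 difference was -0.84 ± 0.22 (limma unadjusted p = 0.00818, adjusted 0.301), a fold of 0.56. It was -1.09 ± 0.31 in Atf4+/+ (limma adjusted p = 0.421) and -0.58 ± 0.31 in Atf4-/- livers (adjusted 0.717). Leaving out each array in turn gave averaged differences of Klkb1 between -0.997 and -0.68. Its partners were F12, factor XII, with a difference of -0.20 ± 0.17, and Kng1, kininogen, with -0.06 ± 0.14, and the treated and untreated ratios of each overlapped. Without treated Atf4+/+ replicate 2 these were -0.10 and -0.02. The Kng1 ratios ran from 0.90 to 1.13 over all 8 arrays.

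Of the serpins, Serpinc1 encodes antithrombin, Serpind1 heparin cofactor II and Serping1 the C1 inhibitor, which restrains both the contact system and complement. The Serpinc1 ratio was 1.13 and 0.86, then 1.14 and 1.04 in untreated Atf4+/+ and Atf4-/-, and 0.99 and 0.81, then 0.98 and 1.01 in the treated groups. These overlapped, and the averaged log2 difference was -0.12 ± 0.16, or -0.06 without treated Atf4+/+ replicate 2. Serpind1 had ratios of 1.15 and 1.13, then 1.28 and 0.99 in the untreated groups, and 0.86 and 0.49, then 1.02 and 0.99 in the treated ones. The Atf4+/+ arrays were apart and the Atf4-/- arrays overlapped. The log2 difference was -0.72 ± 0.29 in Atf4+/+ (limma unadjusted p = 0.0444, adjusted 0.538) and -0.15 ± 0.29 in Atf4-/-, and the difference of these effects had a limma adjusted p of 0.945. Without treated Atf4+/+ replicate 2 the Serpind1 difference in Atf4+/+ was -0.37. Serping1 differed by -0.21 ± 0.17, and by -0.07 without untreated Atf4-/- replicate 1. Plg, plasminogen, which gives the fibrin-dissolving plasmin, had ratios of 1.06 and 1.01, then 1.21 and 0.95 in the untreated groups, and 0.88 and 0.70, then 0.99 and 1.03 in the treated ones. These overlapped; its probe sets gave averaged differences of -0.22 ± 0.16 and -0.24 ± 0.14, or -0.15 and -0.23 without treated Atf4+/+ replicate 2.

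In complement, C1q starts the classical pathway and is made mainly by macrophages rather than hepatocytes. C1qa had ratios of 0.94 and 0.97, then 1.88 and 0.91 in untreated Atf4+/+ and Atf4-/-, and 1.06 and 1.03, then 0.96 and 1.35 in the treated groups. C1qb had 0.79 and 0.96, then 1.43 and 1, and with the drug 1 and 1.27, then 0.94 and 1.01. C1qc had 0.89 and 1, then 1.76 and 0.73, and with the drug 1.09 and 0.98, then 1 and 1.04. By the probe sets used, all 3 were highest in untreated Atf4-/- replicate 1, the array with conflicting labels. There the 9 measured macrophage markers also had their highest median ratio (1.40, against 0.87 to 1.11 on the other arrays). The markers were divided. Clec4f, Cd5l, Csf1r and Lyz2 were at their highest on that array and Cd68 tied for it. Mpeg1 was at its lowest (0.64), and Adgre1 (1.48), Marco (0.97) and Cd14 (1.02) were below their highest. The markers' part in the C1q values was not tested. The averaged differences of the 3 genes were between -0.04 and 0.03, and without that array 0.21 for C1qa, 0.15 for C1qb and 0.28 for C1qc. A second C1qb probe set was lower with the drug, -0.50 ± 0.20 (limma adjusted p = 0.435), while the one used gave 0.03 ± 0.18. On that second probe set treated and untreated arrays did not overlap, in either genotype. Its ratios ran from 0.64 to 0.94 in treated and from 1.06 to 1.47 in untreated arrays. It was not highest in untreated Atf4-/- replicate 1, where it stood at 1.06. In replicate 2 of untreated Atf4+/+ and Atf4-/- it stood at 1.47 and 1.44.

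The lectin pathway begins with the mannose-binding lectins Mbl1 and Mbl2 and their proteases Masp1 and Masp2. Mbl1 had ratios of 0.96 and 1.31, then 1.31 and 0.83 in untreated Atf4+/+ and Atf4-/-, and 0.87 and 0.65, then 1.15 and 1.04 with the drug. Mbl2 had 1.21 and 0.88, then 1.23 and 0.87, and with the drug 0.93 and 0.77, then 1.09 and 1.07. Both spread widely within the untreated groups, and their averaged differences were -0.23 ± 0.21 and -0.10 ± 0.19, or -0.08 and 0.01 without untreated Atf4-/- replicate 1. Masp1 differed by 0.30 ± 0.16 (limma adjusted p = 0.528) and Masp2 by -0.29 ± 0.21, which was -0.12 without treated Atf4+/+ replicate 2. C2, the protease shared by the classical and lectin pathways, gave -0.31 ± 0.21, or -0.15 without untreated Atf4-/- replicate 1, and -0.45 ± 0.44 from its second probe set.

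Factor B (Cfb), the protease of the alternative pathway, had ratios of 0.89 and 1.04 in untreated Atf4+/+, 0.76 and 1.45 in untreated Atf4-/-, 1.54 and 2 in treated Atf4+/+, and 0.96 and 0.81 in treated Atf4-/- livers. The treated Atf4+/+ arrays were the highest of all 8, and the Atf4-/- groups overlapped. The log2 difference was 0.80 ± 0.33 in Atf4+/+ livers (limma unadjusted p = 0.0483, adjusted 0.547) and -0.23 ± 0.33 in Atf4-/- livers. Between treated genotypes, Atf4-/- was lower by -0.92 ± 0.33 (limma adjusted p = 0.874). Without treated Atf4+/+ replicate 2 the Atf4+/+ difference was 0.63 and that between treated genotypes -0.74. The second Cfb probe set had the opposite sign in both genotypes, -0.48 ± 0.49 in Atf4+/+ and 0.75 ± 0.49 in Atf4-/-. In Atf4-/- the disagreement rested on untreated replicate 2, whose Atf4 level stood against its label and where the probe sets had ratios of 1.45 and 0.29: without it they gave 0.19 and 0.05. In Atf4+/+ the second probe set gave -0.14 without treated replicate 2.

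Of the terminal components, Hc (C5) and C9, which build the membrane pore, Hc went opposite ways in the genotypes. Its ratio was 1.5 and 1.18 in untreated Atf4+/+, 0.74 and 0.71 in untreated Atf4-/-, 0.97 and 0.62 in treated Atf4+/+, and 1.03 and 1.23 in treated Atf4-/- livers. Treated Atf4+/+ arrays lay below the untreated ones and treated Atf4-/- arrays above, a pattern that 4.56% of all probe sets shared in one or the other order. The difference was -0.71 ± 0.27 in Atf4+/+ (limma unadjusted p = 0.0385, adjusted 0.520) and 0.57 ± 0.27 in Atf4-/- livers (adjusted 0.704). The difference of the effects, 1.28 ± 0.38, had an unadjusted p of 0.0145 and an adjusted p of 0.901 in limma. Leaving out each array in turn, the Hc difference in Atf4+/+ lay between -0.99 and -0.42, the latter without treated Atf4+/+ replicate 2, and the difference of the effects between 0.99 and 1.56. Without the untreated arrays whose Atf4 level stood against the label, with Hc ratios of 1.18 and 0.71, the differences were -0.87 in Atf4+/+ and 0.55 in Atf4-/-. Untreated Atf4-/- livers had lower Hc ratios than untreated Atf4+/+ livers, with a difference of -0.79 ± 0.27 (limma adjusted p = 0.821). The strain background was mixed, FvB/n and Swiss Webster, and the strain alleles of each mouse at Hc are not given. With 2 arrays per group, an inherited difference in Hc between mice cannot be told apart from treatment or Atf4 genotype. C9 had ratios of 0.93 and 1.31, then 1.65 and 0.64 in the untreated groups, and 1.07 and 0.67, then 0.90 and 1.29 with the drug, with no separation and an averaged difference of -0.15 ± 0.33, which was 0.16 without untreated Atf4-/- replicate 1.

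The regulators C4bp, C4b-binding protein, and Cfi, factor I, together inactivate C4b. C4bp had ratios of 0.90 and 0.89 in untreated Atf4+/+, 0.99 and 0.82 in untreated Atf4-/-, 1.19 and 1.57 in treated Atf4+/+, and 1.01 and 1.19 in treated Atf4-/- livers. All treated arrays lay above all untreated ones, although 1.01 and 0.99 nearly met. The averaged log2 difference was 0.41 ± 0.17 (limma adjusted p = 0.435), and 0.32 without treated Atf4+/+ replicate 2. Cfi differed by -0.14 ± 0.18, with overlapping groups, and by -0.05 without that array.

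In Atf4+/+ livers the drug left 14 of 18 coagulation genes below 0, against 54.9% of all probe sets, with a median of -0.34 against -0.06. Of the 13 complement genes 7 lay below 0, with a median of -0.26. None passed the adjusted test in limma, as against 0.00805% of all probe sets, and 2 coagulation (Klkb1, Serpind1) and 2 complement genes (Cfb, Hc) had an unadjusted p under 0.05, against 9.1% of all. The 2 treated arrays lay below the 2 untreated ones for 10 coagulation genes (55.6%), against 21.3% of all probe sets, and above them for 4 (22.2%), Fga, Fgb, Fgg and F5, against 16.7%. The complement genes had 4 on each side (30.8%). Treated Atf4+/+ replicate 2 had the lowest ratio of all 8 arrays for 13 coagulation genes (72.2%) and 5 complement genes (38.5%), against 21.5% of all named genes. Without it the coagulation median in Atf4+/+ was -0.16 with 11 genes below 0, the complement median was -0.04, and 0 genes of either set had an unadjusted p under 0.05 in limma. Without treated Atf4+/+ replicate 1 there were 6 such coagulation genes, and without untreated Atf4+/+ replicate 2 there were 0. Whether the low Actb 5′ to 3′ value of treated Atf4+/+ replicate 2 had a part in its low ratios was not tested.

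In Atf4-/- livers 11 of 18 coagulation genes lay below 0, against 51.9% of all probe sets, with a median of -0.09, and 6 of 13 complement genes, with a median of 0.05. None passed the adjusted test in limma, where 0% of all probe sets did, and 1 coagulation gene (Fgb) and 0 complement genes had an unadjusted p under 0.05, against 7.42%. Arrays did not overlap on the low side for 4 coagulation genes (22.2%) and 1 complement gene (7.69%), against 22.3% of all probe sets, and on the high side for 3 coagulation genes (16.7%) and 3 complement genes (23.1%), against 20.1%; the coagulation shares are near the background. The counts depended on single untreated arrays: without untreated Atf4-/- replicate 1 there were 6 coagulation genes and 3 complement genes below 0, and without replicate 2, whose Atf4 level stood against its label, there were 15 and 9. Across the 18 coagulation genes, Pearson's r between the effects in the genotypes was 0.84, and across the 13 complement genes -0.29; it was 0.22 across all named genes. These are descriptions across genes, which are not independent replicates. The 2 effects use different arrays, and leaving out each array in turn gave r between 0.77 and 0.88 for coagulation and between -0.51 and 0.06 for complement.

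**Figure D3:**
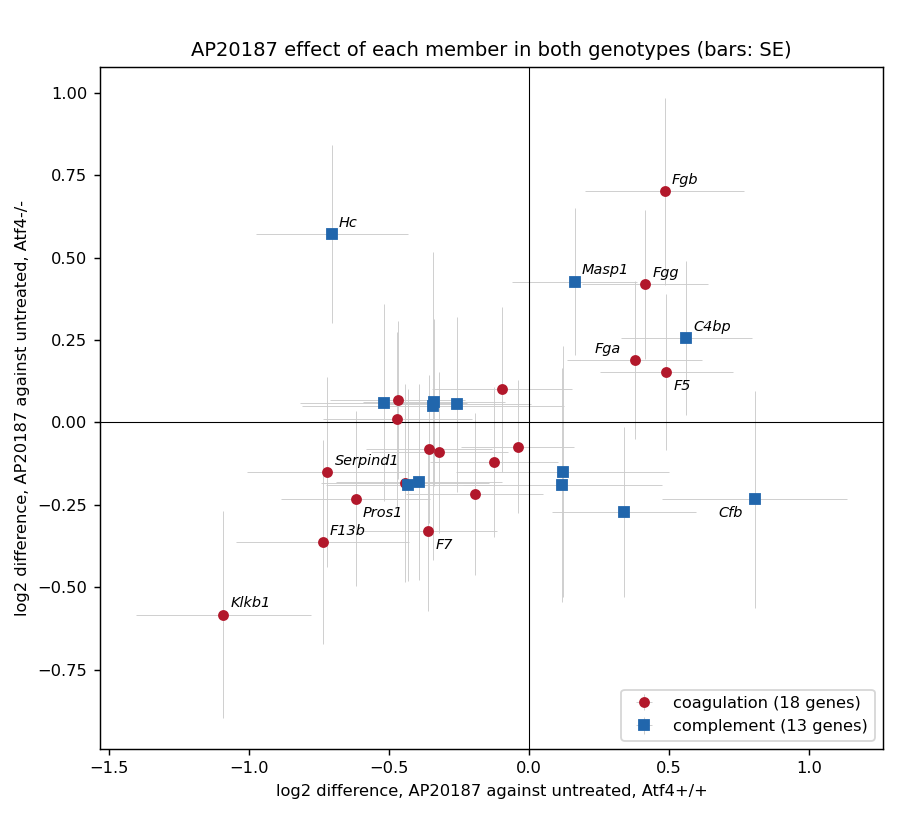
Log2 difference with AP20187 in Atf4+/+ livers (horizontal axis) against that in Atf4-/- livers (vertical axis), 1 point per gene with bars of 1 SE, coagulation and complement apart. Klkb1 is low in both genotypes, the 3 fibrinogen genes are above 0 in both, and Hc lies below 0 in Atf4+/+ and above 0 in Atf4-/-.

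For the difference of the effects between genotypes, no member passed the adjusted test in limma (0% of all probe sets did), and 1 of 31, Hc, had an unadjusted p under 0.05, against 5.46% of all. The difference of effects was above 0 for 14 coagulation genes and 8 complement genes, against 53.4% of all probe sets, with medians of 0.23 and 0.24 against 0.04. Below 0 lay 4 coagulation genes, against 46.6% of all probe sets, and there were 10 without treated Atf4+/+ replicate 2, 7 without untreated Atf4-/- replicate 2 and 2 without treated Atf4+/+ replicate 1. Among treated livers, 16 of 18 coagulation genes were above 0 in Atf4-/- relative to Atf4+/+, against 54.8% of all probe sets, and 7 genes (F10, F12, Klkb1, Plg, Proc, Serpind1 and Fgg) lay apart on the high side, against 19.2%, and 1 (F5) on the low side, against 15.3%. Of the complement genes 8 lay above 0, with Cfi, Hc, Mbl1 and Mbl2 apart on the high side and Cfb on the low side. Without treated Atf4+/+ replicate 2 the coagulation median of 0.17 became 0.02, and 7 of 18 lay below 0 where 2 had (45.1% of all probe sets). No member passed the adjusted test in limma in this comparison (0% of all did), and 1 gene, Cfb, had an unadjusted p under 0.05, against 5.31%. In untreated livers 8 coagulation genes lay above and 10 below 0 in Atf4-/-, with a median of -0.03, against 49.3% of all probe sets above and 50.6% below. Fga and C1qb lay apart on the high side, against 15.5%, and Hc and Masp1 on the low side, against 16.4%, and no member passed the adjusted test in limma (0% of all). Hc was the only member at an unadjusted p under 0.05, against 5.32%. Without both arrays whose Atf4 level stood against the label, 5 coagulation and 5 complement genes lay below 0.

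Other genes of the same pathways, and other secreted proteins, were taken from wider lists. Of 17 further measured coagulation genes, which hold regulators and platelet or endothelial genes, 12 lay below 0, with a median of -0.14 in the averaged comparison. Tfpi, the inhibitor of the tissue factor pathway, was the only one at an unadjusted p under 0.05, against 11.3% of all probe sets. Its difference was -0.82 ± 0.28 (limma adjusted p = 0.382). Its ratio was 1.25 and 1.33, then 1.26 and 0.76 in untreated Atf4+/+ and Atf4-/-, and 0.69 and 1.24, then 0.50 and 0.27 with the drug. Of 16 further complement genes 11 lay below 0, with a median of -0.11. Cd59a, which blocks the terminal pore, differed by -0.78 ± 0.23 (limma adjusted p = 0.324), and its treated ratios of 0.45 to 0.90 lay below the untreated ratios of 1.10 to 1.41. C8g, a subunit of the pore protein C8, differed by -0.49 ± 0.18 (adjusted 0.406). Cd59a and C8g alone of this list had an unadjusted p under 0.05 in limma, against 11.3% of all probe sets. No gene of either list passed the adjusted test. Among all probe sets 55% lay below 0 in this comparison and 3.78% lay apart on the low side.

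Against these, the acute phase genes were mostly higher, 18 of 20 above 0 with a median of 0.33. Among them were Apcs, serum amyloid P component, at 1.51 ± 0.27 (limma adjusted p = 0.185) and Lcn2, lipocalin 2, at 2.10 ± 0.51 (adjusted 0.267). The acute phase median ratio was 0.785 and 0.875 in untreated Atf4+/+ livers and 1.04 to 1.135 in treated arrays. Untreated Atf4-/- replicate 1, with conflicting labels, lay within the treated range at 1.06. Untreated Atf4-/- replicate 2, whose Atf4 level stood against its label, was the lowest at 0.605. Of 20 other plasma protein genes of the liver 17 lay below 0, with a median of -0.15, including Ttr at -0.57 ± 0.20 and Apoa2 at -1.02 ± 0.31, neither past the adjusted test. Ttr is also the gene whose promoter drives the transgene. Of 9 measured hepatocyte markers 8 lay below 0, with a median of -0.13, and their median ratio ran from 0.92 to 1.14 in untreated and from 0.87 to 1.06 in treated arrays. Averaged over genotypes, most of these markers lay on the same side of 0 as most coagulation genes other than fibrinogen. By array the lists differed. In treated Atf4+/+ replicates 1 and 2 the marker median was 0.88 and 0.87, and that of coagulation without fibrinogen 0.95 and 0.69. Alb, Apoa1, Apob and Ttr are markers that are also among the other plasma protein genes. The markers' part in the coagulation values was not tested. Among 10 measured transcription factors of plasma protein genes 7 lay above 0, with Cebpb at 0.87 ± 0.28, Cebpd at 0.59 ± 0.22 and Foxa3 at 0.66 ± 0.25 at an unadjusted p under 0.05 and none past the adjusted threshold.

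**Figure D4:**
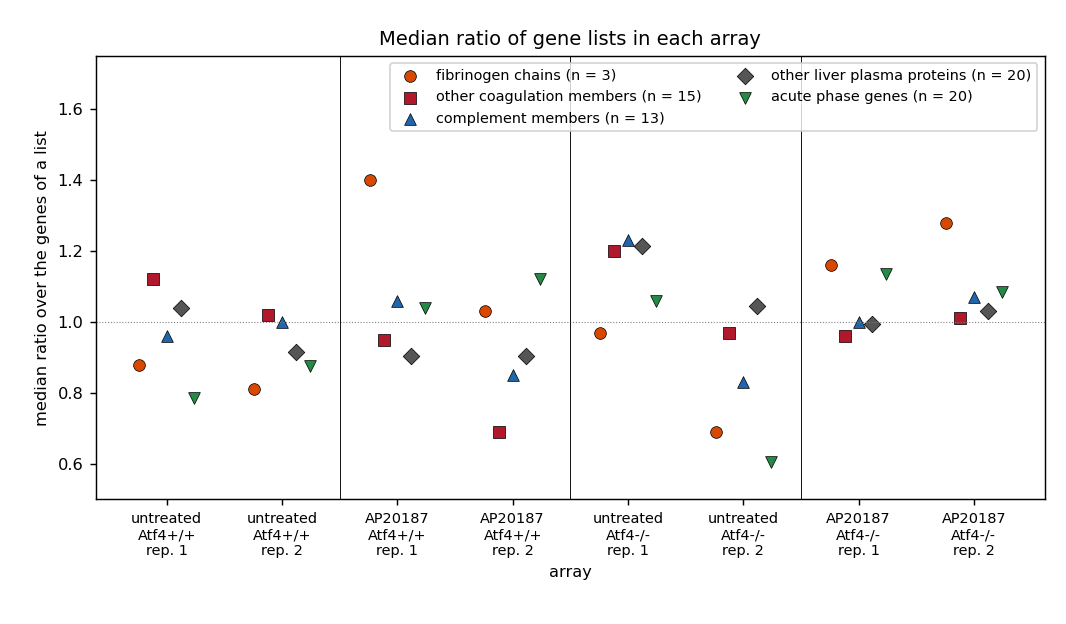
Median ratio of each gene list on each of the 8 arrays, drawn as 1 point per list and array, for fibrinogen, the other coagulation genes, complement, other plasma proteins and acute phase genes. The fibrinogen points lie at 0.69 to 0.97 in untreated and 1.03 to 1.40 in treated arrays, and coagulation without fibrinogen is lowest at 0.69 in treated Atf4+/+ replicate 2.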

How the data were processed

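Liver RNA was hybridised to 8 Affymetrix arrays, 2 per group. The deposited table holds linear ratios in steps of 0.01. The authors' summarising and scaling of signals are, for these arrays, not given in the sources used here. Of 12488 probe sets, 85.8% had a median ratio of at least 0.99 and 14.2% a lower one. Groups came from source names and descriptions. Replicate numbers follow accession order and pair nothing.

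The fit used 12422 probe sets, without 66 controls. A single gene was named by 10833 of them, several by 396 and none by 1193, and 10817 had an identifier in the RefSeq gene list. A pseudocount of 0.1 was added to each ratio before log2. With limma 3.58.1 under R 4.3.3, 4 group means were fitted to 8 arrays, with eBayes (4 residual and 2.37 prior degrees of freedom), 6 contrasts and Benjamini-Hochberg adjustment over all probe sets. Simulated data served to test the code. Where a gene had several probe sets, preference went to a row median from 0.99 up, next to a plain name and last to alphabetical order, and for the 7 members with more than 1 the others are given. Every array's value is given for fibrinogen, F2, F5, Serpinc1, Plg, C1q, Mbl1, Mbl2, C9, Cfb and any member with an unadjusted p under 0.05; from wider lists up to 4 genes with the smallest p. The other genes given by array were chosen after their values were seen. Members and lists were chosen with earlier results of these data known, so no list was tested. Promoter windows are from RefSeq, GRCm38.p6. Brightness is unknown. The small number of arrays sets the precision: the median SE was 0.32 for 2 against 2 arrays and 0.23 for 4 against 4. Figures used Python 3.11.15, pandas 2.3.3 and matplotlib 3.10.9. Alternatives were other pseudocounts, normalizations, filters, probe set rules, moderation and leaving out each array or the doubted ones.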

Additional observations from a re-analysis of the deposited data

Results flagged for a closer look

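Hc was flagged because both treated arrays moved one way in Atf4+/+ livers and the opposite way in Atf4-/- livers. The log2 difference of Hc with AP20187 was -0.71 in Atf4+/+ and 0.57 in Atf4-/-. The difference of the effects was tested with the interaction term of the limma fit and had an adjusted p of 0.901, with an unadjusted p of 0.0145. Leaving out each array in turn, the difference in Atf4+/+ lay between -0.99 and -0.42, the latter without treated Atf4+/+ replicate 2, and the difference of the effects between 0.99 and 1.56. Both effects use an untreated replicate 2 whose Atf4 ratio (0.30 in Atf4+/+, 1.67 in Atf4-/-) stood against its label, and without these arrays they were -0.87 and 0.55. Of all probe sets, 4.56% were apart in opposite directions in the genotypes. By the probe sets used, Hc was the only such gene among the 31, a share not above that background. The second probe set of Proc had the same pattern. On the mixed strain background, with 2 arrays per group, an inherited difference in Hc between mice cannot be told apart from treatment or Atf4 genotype.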

How the results depend on the processing

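No member passed the adjusted test in limma in any of 17 other settings, where the smallest adjusted p was 0.184. The counts over all probe sets moved more. Past the adjusted threshold, the AP20187 effect in Atf4+/+ had 1 probe set, and 2 with quantile normalization, 8 with row medians of at least 0.99, 6 with the mean of a gene's probe sets, and 0 without both arrays whose Atf4 level stood against the label or with the groups of the comparison alone. Averaged over genotypes there were 5, and 12 with quantile normalization, 8 with a pseudocount of 0.5, 10 with row medians of at least 0.99, 12 with trended and robust moderation and 0 without both doubted arrays. In Atf4-/- there were 0, and 1 with the mean of probe sets; for the difference of effects 0, and 2 with row medians of at least 0.99 and 2 with the mean of probe sets. Leaving out 1 array in turn gave counts of 0 to 0 in Atf4+/+ and 0 to 2 averaged.

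Medians moved by more than the spread between arrays only when arrays were left out. Without both doubted arrays the complement median in Atf4-/- was -0.24. Leaving out each array in turn, the coagulation median ran from -0.49 to -0.16 in Atf4+/+, from -0.017 to 0.41 for the difference of effects, from 0.02 to 0.35 between treated genotypes and from -0.18 to 0.15 between untreated ones. The complement median ran from -0.38 to -0.043 in Atf4+/+, from -0.24 to 0.30 in Atf4-/-, from -0.073 to 0.43 for the difference of effects and from -0.30 to 0.14 between untreated genotypes. The causes were not tested. No paired analysis was possible because the labels carry no replicate numbers.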
